A study of Mus musculus with 158 samples.

Results

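Short hairpin RNAs (shRNAs) against 3 genes that hold back cell division, Cdkn1b, Cdkn2a and Sfn, were followed through a pooled screen in a mouse pancreatic cancer line. They were all the rows whose target was given as Cdkn1b, Cdkn2a or Sfn, and made up 10 of 1008 hairpins. A Cdkn1b hairpin (TRCN0000071063, also listed as TRCN0000287390) was 1 of 8 control hairpins added to every pool. The other 9 were among the 1000 targeting hairpins, namely 1 against Cdkn1b in pool 1, 4 against Cdkn2a in pools 2, 3 and 13, and 4 against Sfn in pools 10 and 18. Hairpins are named here by the clone numbers of the hairpin collection.

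Cyclin-dependent kinases drive cells through division, in part by inactivating the retinoblastoma protein, and the products of these genes slow the cycle at different steps. Cdkn1b encodes p27Kip1, which binds cyclin E-CDK2 complexes and restrains entry into S phase. Cdkn2a encodes p16INK4a, an inhibitor of CDK4 and CDK6, and from an alternative reading frame p19ARF, which stabilises p53, and this locus is often lost in pancreatic cancer. Sfn encodes 14-3-3 sigma, a p53 target that holds the mitotic kinase complex in the cytoplasm after DNA damage. A hairpin against such a gene becomes more frequent in a growing population where its cells multiply faster than their neighbours, but the level of the target RNA or protein was not measured in these samples.

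The line, PDA530 Met, came from a liver metastasis of pancreatic adenocarcinoma, and every sample is of this line. The hairpins were split over 19 pools, each packaged in virus and used to infect cells at a multiplicity of infection of 0.3, followed by 4 days of puromycin at 3 µg/ml. Genomic DNA was then taken from pelleted cells (day 0), from cells kept in culture to day 28, and from lungs collected 28 days after tail-vein injection into 3 mice per pool, with the tumours of a mouse pooled. All groups thus share the same line, the viral vector and puromycin selection, and they differ in the pool carried and in 28 days of growth in a dish or in lungs; the strain of the host mice is not given in the sources used here. Values came from 148 of 158 samples (58 at day 0, 39 of culture, 51 of lungs), 2 of them technical repeats in each group. Lung values of pool 3 and culture and lung values of pool 13 were not analysed here. Before technical repeats were summed, samples held 4122499 to 13226329 reads at day 0, 4525346 to 13728338 in culture and 58189 to 11104545 in lungs, and lung sample 6A was the shallowest.

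Some libraries stood apart. In lung library 10C only 1946 of 5658227 reads (0.0344%) came from hairpins of pool 10 and 99.2% came from controls. In lung library 16D 0.677% of reads came from pool 16 and 74.1% from targeting hairpins of other pools. Other pools' hairpins also took 18.8% of lung library 17A and 15.3% of the culture library of pools 16 and 17 labelled A. Values without these libraries are given beside the results that rest on them. Lung library 6C held 1834713 of 7185302 reads from hairpins of pool 6, and the Cdkn1b control hairpin made up 4.06% of its control reads. It was kept where the libraries that stood apart were left out.

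Levels are given in CPM, the usual unit of counts scaled to sequencing depth, here reads of a hairpin relative to the targeting reads of its own pool with TMM factors, a correction that keeps the bulk of a pool's hairpins level between libraries. Many culture libraries were named for 2 pools, and control reads there were divided by the targeting reads of both. Changes are differences in log2(CPM + 1) from limma, and a hairpin was called where the adjusted p, over all hairpins of all pools, was at most 0.05. Replicates are libraries of separate mice in the lungs and triplicate cultures in the dish; nothing says whether the day 0 libraries of a pool came from separate cells, so p-values may partly measure technical spread.

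The Cdkn1b control hairpin was higher in lungs than at day 0, relative to the targeting hairpins, in 17 of 17 pools with lung values, and in 16 of 17 without TMM. Its level ran from 5400 CPM through a median of 59927 to 128819 CPM in 56 day 0 libraries. In 37 culture libraries it ran from 6283 through 75015 to 183909 CPM. In 47 lung libraries, leaving out 10C and 16D, it ran from 8423 through 194088 to 546702 CPM, the last in lung library 17A. As a share of all reads, which needs no scaling to targeting hairpins, the median was 4.09% at day 0, 3.98% in culture and 9.83% in lungs. The largest share was 22.1%, in lung library 4B, and the smallest 0.0353%, in lung library 10C. In 10C and 16D the CPM values reached 8047547 and 8286871 because the denominators were so small.

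The starting level depended on the pool. At day 0 the mean was lowest in pool 1, at 5533 ± 188 CPM (SD, n = 3), then pool 2, at 7094 ± 707 CPM (SD, n = 3), and pool 12, at 14243 ± 1057 CPM (SD, n = 3). It was highest in pool 4, at 123591 ± 8852 CPM (SD, n = 3), which was 22.3-fold above pool 1. In the order of the 19 pools, 8 of 18 steps from a pool to the next had no overlap between libraries. Pools 9, 8, 17 and 6, at 44288 to 49952 CPM, and pools 18, 15, 14, 11, 10, 16, 19 and 7, at 59159 to 72989 CPM, formed runs in which each pool overlapped with the next. The runs did not overlap with each other where they met, between pools 6 and 18, and pool 7 lay below pool 13.

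Pools 4 and 1 held the hairpin at its most common and its rarest at day 0. In pool 4 the day 0 libraries gave 128819, 128583 and 113370 CPM, the cultures shared with pool 5 gave 155245, 183909 and 177368 CPM, and the lungs gave 407927, 440576 and 334304 CPM. All 3 lungs lay above every culture, and every culture above every day 0 library; the change from day 0 to lungs was 1.67 (SE 0.13, adjusted p 0.000406), and 1.47 (adjusted p 0.000616) without TMM. In pool 1, where it was rarest, the day 0 libraries gave 5451, 5400 and 5748 CPM, the cultures shared with pool 2 gave 7403, 6708 and 6283 CPM, and the lungs gave 15390, 16565 and 18354 CPM. With TMM the groups did not overlap, and the change from day 0 to lungs was 1.60 (SE 0.19, adjusted p 0.000998), although lung library 1A held only 1226 reads of the hairpin. Without TMM the groups overlapped, and the change was 0.26 (SE 0.27, adjusted p 0.456). In pool 19 the day 0 libraries gave 68894, 64265 and 71622 CPM and the lungs 276311, 218608 and 302836 CPM, a change of 1.95 (SE 0.16, adjusted p 0.000531). Its 4 cultures spread widely, from 52974 to 136324 CPM, and overlapped with day 0.

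Over the 17 pools with both groups, the mean change from day 0 to lungs was 1.94 ± 0.84 (SD over pools), from 0.62 in pool 2 to 4.21 in pool 16. It was positive in 17 of 17 pools (two-sided sign-flip permutation test over pools, 100000 resamples, p = 2e-05). The hairpin was called higher in 14 of 17 pools and lower in none, and lung and day 0 libraries did not overlap in 17 of 17. Without TMM the mean change was 1.31, with 11 of 17 pools called higher and none lower; the groups then overlapped in pools 1, 2, 14 and 15, and pool 14 gave -0.15 (adjusted p 0.843). Over all 1027 hairpin tests of this comparison, 15.3% were called higher and 22.3% lower, and 24.8% lay higher and 34% lower without overlap. The 3 pools without a call were pools 2, 10 and 16, with changes of 0.62 (SE 0.25, adjusted p 0.0838), 3.52 (SE 1.79, adjusted p 0.184) and 4.21 (SE 1.85, adjusted p 0.150). Pools 10 and 16 hold the lung libraries with few own reads; without 10C and 16D the count was 16 of 17, the mean change was 1.67 ± 0.42 (SD over pools), and the highest was 2.42, in pool 17. Pool 16 then kept 1 lung library, whose spread was taken from the day 0 libraries, and over the 16 pools with at least 2 libraries in each group the count was 15. Leaving out 17A and the mixed culture A as well gave the same counts and a mean of 1.64 ± 0.37, with changes of 1.66 in pool 10 and 1.42 in pool 16, the highest at 2.24 in pool 6, and a change of 1.89 (SE 0.28, adjusted p 0.00417) in pool 17 against 2.42 with 17A. Within the pools' own targeting hairpins the change of the Cdkn1b control ranked at a median of 3, was above all of them in pools 10, 16 and 17 and among the top 5 in 12. Without lung libraries 10C, 16D and 17A and the mixed culture A it was above all of them in none of the 17 pools, among the top 5 in 11, and ranked at a median of 4.

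Reads within a library need no scaling. The hairpin had more reads than every targeting hairpin of the pool in 24 of 49 lung libraries, 11 of 56 day 0 libraries and 10 of 37 cultures. Mixed cultures were counted against the first-named pool only. Among those counted, 8/9A, 8/9B and 8/9C ranked 4, 3 and 4 in pool 9. Cultures 10/11B and 10/11C ranked 5 in pool 11, and 6/7C ranked 2 in pool 7. Cultures 9/10A, 9/10B and 9/10C, not counted, ranked 1 in pool 10. In the 10 cultures that held 1 pool it was above every targeting hairpin in 0, at a median rank of 9.5. These came from pools 3, 12, 15, 16 and 19 only. At day 0 it already ranked 13 and 15 in pool 3 and 33 to 37 in pool 12. Cultures gave ranks of 17, 10 and 9 in pool 3 and 26, 18 and 18 in pool 12. The median rank was 4 at day 0 and 2 in lungs over all pools with values, which is not the same set of pools. It was the most read of the 8 controls in 23 of 49 lung libraries, 3 of 37 cultures and 2 of 56 day 0 libraries. Its share of control reads had a median of 14.9% at day 0 (2.45% to 38.5%), 21.6% in culture (2.81% to 66.9%) and 41.2% in lungs (0.0356% to 68.2%). The ranges of these shares overlapped between groups, and the lowest lung share was in library 10C. Without 10C and 16D the lowest was 4.06%, in lung library 6C.

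The other 7 controls included 2 non-targeting hairpins and a hairpin against GFP. The mean change of the 7 was below 0 in all pools but 10 and 16, and the Cdkn1b control rose further against it: by 3.37 ± 0.86 from day 0 to lungs (17 of 17 pools, sign-flip permutation p = 2e-05). Without 10C and 16D it rose further by 3.54 ± 0.51, and the mean change of the 7 was below 0 in all 17 pools. Its change ranked first of the 8 controls in 14 of 17 pools, and behind at least 1 other control in pools 10, 14 and 16; without 10C and 16D it ranked first in all but pool 14. Non-targeting-shRNA-1 came nearest, with a mean change of 1.40 ± 1.67 (0.83 ± 0.73 without 10C and 16D), and lay below the Cdkn1b control in 14 of 17 pools (16 without them). The hairpin against GFP, a reporter that is not a mouse gene, changed by -0.01 ± 1.06 on average (-0.34 ± 0.60 without them) and lay below it in 17 of 17.

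In culture the change was smaller and depended on how libraries were scaled. Pools that shared a culture library were averaged into a set first. Over the 9 sets, the Cdkn1b control changed by 0.50 ± 0.26 (SD over sets; exact sign-flip permutation test, p = 0.00391, the smallest 9 sets can give). It was called higher in 12 of 18 pools and lower in none, and lay higher without overlap in 13. Among all 1089 tests 27% were called higher and 35.9% lower, and 29.2% lay higher and 39.9% lower without overlap. Changes ran from -0.06 (SE 0.16, adjusted p 0.749) in pool 2 to 1.00 (SE 0.22, adjusted p 0.00216) in pool 17, and its median rank among the pool's targeting hairpins was 18. In pool 17 the mixed culture A gave 130040 CPM and the others 86731 and 84498 CPM. Without the libraries that stood apart the pool 17 change was 0.76 (adjusted p 0.00248), and the mean over sets was 0.48. When CPM was taken from targeting reads without TMM the mean change was -0.032 (exact permutation p = 0.625), with 2 pools called higher and 2 lower. With library totals it was 0.072 (exact permutation p = 0.285). That scaling matters because TMM moved the pool as a whole: the median targeting hairpin changed by -0.15 in culture with TMM and by -0.64 without.

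Against the other 7 controls of the same library, which leaves that choice out, the Cdkn1b control rose in culture by 1.54 ± 0.41 over 9 sets (exact sign-flip permutation p = 0.00391), and by 1.58 ± 0.42 without the libraries that stood apart. It did not lead them: Non-targeting-shRNA-1 changed by 1.08 ± 0.35 from day 0 to culture and was above the Cdkn1b control in all but 1 of 18 pools. The second non-targeting hairpin changed by -2.17 ± 0.50, so the non-targeting pair moved in opposite directions. The level of a change relative to these controls therefore depends on which control is used.

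From culture to lungs the Cdkn1b control rose by 1.39 ± 0.58 over 8 sets (SD over sets; exact sign-flip permutation test, p = 0.00781, the smallest 8 sets can give). It was called higher in 10 of 17 pools and lower in none, and lay higher without overlap in 16. Among all 1025 tests 10.6% were called higher and 13.5% lower, and 19.4% lay higher and 23.2% lower without overlap. The change was smallest in pool 2, at 0.68 (SE 0.24, adjusted p 0.0759). Without lung libraries 10C and 16D the mean was 1.16 and 11 pools were called, and without 17A and the mixed culture A as well it was 1.14 with 11 called. Dividing control reads in mixed cultures by the targeting reads of a single pool, which leaves out the other pool's cells, gave 0.56 (exact permutation p = 0.0312) with 1 pool called higher and 1 lower. Relative to the other 7 controls the rise was 1.82 ± 0.42 over the sets, and it was positive in 16 of 17 pools; pool 10 gave -0.50, where library 10C is almost wholly control reads. Without 10C and 16D it was 1.94 ± 0.30 over the sets and positive in 17 of 17 pools.

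The second Cdkn1b hairpin, TRCN0000071064, was a rare member of pool 1. Day 0 libraries gave 1157, 1265 and 1208 CPM, cultures 1739, 1912 and 2229 CPM, and lungs 1946, 4017 and 2167 CPM, the first of these from 155 reads. Both later groups lay above every day 0 library and overlapped with each other. It rose 1.61-fold in culture (log2 change 0.69, SE 0.18, adjusted p 0.00885) and 2.12-fold in lungs (1.09, SE 0.36, adjusted p 0.0496; edgeR adjusted p 0.0529), and the change from culture to lungs was 0.40 (SE 0.38, adjusted p 0.466). The lung call is lost when any day 0 library (adjusted p 0.138 to 0.158) or lung library 1C (0.0572) is left out, and without TMM the lung change was -0.25 (adjusted p 0.692). In the same pool the Cdkn1b control changed by 1.60 in lungs and 0.29 in culture. The log2 ratio of the control to this hairpin went from 2.19 ± 0.09 at day 0 to 1.80 ± 0.30 in culture and 2.70 ± 0.57 in lungs; these differences gave exact permutation p = 0.10 and 0.40, and 3 against 3 libraries cannot go below 0.10.

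Cdkn2a hairpins TRCN0000222731 (pool 2) and TRCN0000257162 (pool 3) rose in culture. Across Cdkn2a and Sfn together, 3 of 6 hairpins with culture values were called from day 0 to culture, all higher, against 62.9% of all hairpin tests called in either direction. The files pair the 4 Cdkn2a hairpins with 1 of the 2 RefSeq transcripts of the gene, and whether they also match the other was not tested.

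TRCN0000222731 was abundant from the start. It gave 53024, 62505 and 53881 CPM at day 0, 142817, 171575 and 150347 CPM in culture, and 67475, 66012 and 67158 CPM in lungs. It had the most reads of the 52 targeting hairpins of the pool in all 3 cultures, each shared with pool 1, and its groups did not overlap, with lungs between day 0 and culture. The 2.74-fold rise in culture (log2 change 1.46, SE 0.14) ranked 2 among 52 targeting hairpins of pool 2. Its adjusted p was 3.19e-19 with limma, where the spread of this pool was set wholly by the fitted trend, and 7.84e-06 with edgeR on the reads. From culture to lungs it fell, by 1.21 on the log2 scale (SE 0.10, adjusted p 0.000168), and this ranked 47 of 52. From day 0 to lungs the change was 0.25 (95% interval -0.03 to 0.52, adjusted p 0.140), and 0.42 (adjusted p 0.0232) with DESeq2 size factors. With library totals, which in these cultures hold the reads of pool 1 too, the culture change was 0.080 (adjusted p 0.517) and the change from culture to lungs -0.038 (adjusted p 0.878). Its share of all reads was 4.15% to 4.73% at day 0, 3.89% to 5.53% in culture and 4.53% to 4.83% in lungs.

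TRCN0000257162 started far lower, at 1192 and 730 CPM in the 2 day 0 libraries of pool 3. Its cultures gave 2723, 5123 and 11345 CPM and lay above both, with a wide spread between cultures. The change of 2.53 (SE 0.64, adjusted p 0.0140), a 5.79-fold rise, ranked 2 among 54 targeting hairpins. The cultures of pool 3 were not mixed with another pool, and the call held with targeting reads without TMM (1.83, adjusted p 0.0479) and with library totals (1.87, adjusted p 0.0408). The pool 13 hairpins had day 0 values only. TRCN0000362596 gave 508, 312 and 512 CPM and TRCN0000362666 gave 358.4, 161 and 393 CPM; the latter was the rarest of the 54 hairpins in all 3 libraries, and the former ranked 52 or 53.

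In lungs, values were present for the 4 Sfn hairpins and 1 Cdkn2a hairpin. From day 0 to lungs 2 of these 5 were called, both higher and both against Sfn, a share near the 37.6% of all hairpin tests called. From culture to lungs 3 of 5 were called, 2 Sfn hairpins higher and the Cdkn2a hairpin of pool 2 lower, beside 24.1% of all tests. The genes lay in different pools, and a difference between them was not tested.

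In pool 18, TRCN0000436998 gave 3561, 4594 and 3921 CPM at day 0, 5826, 5208 and 6035 CPM in culture, and 11389, 14526 and 14410 CPM in lungs. The 3 groups were ordered without overlap. From day 0 to lungs it rose 3.34-fold (log2 change 1.74, SE 0.35, adjusted p 0.00551), and it remained called under each other scaling, including targeting reads without TMM (1.35, adjusted p 0.0142). The rise from culture to lungs was 1.23 (SE 0.38, adjusted p 0.0402), lost without any culture letter (adjusted p 0.127 to 0.151) or lung library 18C (0.0709), and 1.04 (adjusted p 0.0605) with DESeq2 size factors. The change in culture was 0.50 (SE 0.21, adjusted p 0.0679), and 0.64 (adjusted p 0.0299) with those factors.

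The second Sfn hairpin of that pool, TRCN0000437399, varied more between mice. It gave 4436, 5351 and 4055 CPM at day 0, 1901, 5957 and 4875 CPM in culture, and 11123, 30586 and 4695 CPM in lungs. Lung library 18C lay among the day 0 and culture values and 18B far above them. Its changes were 1.35 from day 0 to lungs (95% interval -0.10 to 2.80, adjusted p 0.129), -0.27 in culture (adjusted p 0.618) and 1.62 from culture to lungs (adjusted p 0.143). In pool 18 every same-letter r of day 0 and lung libraries exceeded 0.1 (0.18 to 0.44), as in 3 of 15 pools, while the median over all pools was 0.03. With the letter as a replicate block the change from day 0 to lungs was called (adjusted p 0.0460). The same block raised the SE of TRCN0000436998 from 0.35 to 0.54. Whether libraries of a letter belong together was not tested apart from these values. Without lung replicate C the lung changes were 2.01 (adjusted p 0.0175) and 2.28 (adjusted p 0.0467).

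The pool 10 pair started level and then parted. TRCN0000112150 gave 10590, 11473 and 12798 CPM at day 0. Its cultures with pool 9 gave 21598, 19090 and 29943 CPM, and those with pool 11 gave 19247, 36397 and 27153 CPM. Every culture lay above every day 0 library, a 2.14-fold rise (log2 change 1.10, SE 0.22, adjusted p 0.000837). The direction turned with library totals and with deposited values. Its share of all reads was 0.698% to 0.924% at day 0 and 0.314% to 0.870% in culture, where the total holds the reads of both pools. Its lungs gave 20234 and 24340 CPM, with 12071 CPM in 10C from 3 reads (95% exact Poisson interval 2489 to 35278 CPM, counting error only). The change from day 0 to lungs was 0.64 (SE 0.33, adjusted p 0.192), and 0.81 (adjusted p 0.0212) without 10C and 16D. From culture to lungs it was -0.46 (95% interval -1.22 to 0.31, adjusted p 0.348).

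TRCN0000112151 gave 11279, 11669 and 12750 CPM at day 0. Its cultures gave 14881, 11277 and 12373 CPM with pool 9 and 10341, 9346 and 11551 CPM with pool 11. These overlapped with day 0, and the change was -0.05 (95% interval -0.44 to 0.34, adjusted p 0.833). Its lungs gave 34148 and 39932 CPM, with 20119 CPM in 10C from 5 reads (exact Poisson interval 6533 to 46951 CPM). All lungs lay above every other library of the pool, the value of 10C resting on those few reads. The change was 1.34 from day 0 (SE 0.34, adjusted p 0.0292) and 1.39 from culture (SE 0.28, adjusted p 0.00703), and without 10C and 16D it was 1.51 (adjusted p 0.00131) and 1.46 (adjusted p 0.00063). The day 0 comparison loses its call without any day 0 letter (adjusted p 0.101 to 0.123), lung library 10A (0.0577) or 10B (0.0510). Without TMM, and with 10C kept, it was -0.050 (adjusted p 0.973), and without TMM, 10C and 16D it was 1.03 (adjusted p 0.00671). With only the cultures sequenced in the lane of the day 0 libraries, the change from culture was 1.24 (adjusted p 0.0920).

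The ratio of these Sfn hairpins within a library needs no scaling. The log2 ratio of TRCN0000112151 to TRCN0000112150 was 0.04 ± 0.05 (SD, n = 3) at day 0, -1.11 ± 0.50 (SD, n = 6) in culture and 0.74 ± 0.02 (SD, n = 3) in lungs, and the groups did not overlap. The difference was -1.15 from day 0 to culture and 1.85 from culture to lungs, each with exact permutation p = 0.0119, or 0.0536 after adjustment over the 9 ratio comparisons made. From day 0 to lungs it was 0.70 (exact permutation p = 0.10, the smallest 3 against 3 allows). Without 10C, whose ratio rests on 5 and 3 reads, the lung ratio was 0.73 ± 0.03 (SD, n = 2), and the difference from culture to lungs was 1.84 (exact permutation p = 0.0357, unadjusted, the smallest 6 against 2 allows). In pool 18 the ratio of TRCN0000436998 to TRCN0000437399 changed by 0.39 from day 0 to lungs (exact permutation p = 0.700).

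Other checkpoint and cell cycle genes gave a mixed picture. Of a list of 144 cell cycle genes, 12 were targeted, by 40 hairpins, and 9 genes with 31 hairpins remained without Cdkn1b, Cdkn2a and Sfn. From day 0 to lungs 6 of 27 tested hairpins of these other genes were called higher and 3 lower, beside 15.3% higher and 22.3% lower over all hairpin tests. Their median change was 0.43, and the median over all targeting hairpins was -0.14. In culture 9 of 28 were called higher and 7 lower (median 0.03, against -0.15), beside 27% higher and 35.9% lower over all tests. From culture to lungs 4 of 26 were called higher and 2 lower (median 0.15, against -0.13), beside 10.6% higher and 13.5% lower.

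Hairpins against a single gene did not always move together. Cdkn2b encodes p15INK4b, the CDK4 and CDK6 inhibitor next to Cdkn2a in the genome. Its pool 4 hairpins TRCN0000042600 and TRCN0000042599 rose from day 0 to lungs by 2.65 (SE 0.41, adjusted p 0.00424) and 1.46 (SE 0.46, adjusted p 0.0483), while TRCN0000362420 in pool 14 fell by 2.01 (SE 0.56, adjusted p 0.0242). Tnfrsf10b, a death receptor gene induced by p53, had 4 hairpins in pool 7, of which 3 rose and 1 fell in culture. The one that fell there, TRCN0000012327 (-0.90, adjusted p 0.000258), rose from culture to lungs by 2.35 (SE 0.24, adjusted p 2.06e-05). Sesn2, a stress-induced p53 target, had TRCN0000087791 up by 2.31 in culture (adjusted p 3.39e-06) and down by 1.87 from culture to lungs (adjusted p 0.00488). A second Sesn2 hairpin, TRCN0000087792, also rose in culture, by 1.04 (adjusted p 0.00264), and rose from culture to lungs by 1.50 (adjusted p 0.00824), while TRCN0000340902 against the same gene fell in culture by 1.06 (adjusted p 0.000858). An Rb1 hairpin in pool 2, TRCN0000042543, against the gene of the retinoblastoma protein itself, rose by 1.37 in culture (SE 0.17, edgeR adjusted p 0.000114). From day 0 to lungs it was not called (0.83, adjusted p 0.304). The other Rb1 hairpins tested in culture were not called there and went opposite ways, TRCN0000055378 by -1.78 (adjusted p 0.0702) and TRCN0000218099 by 3.76 (adjusted p 0.139). Both hairpins called in culture against Timeless, a replication fork protection gene, fell there, by 3.01 and 1.71. Of the genes for DNA damage kinases, Prkdc had TRCN0000023862 up by 1.06 from day 0 to lungs (adjusted p 0.00204) and TRCN0000361373 down by 1.50 in culture (adjusted p 0.000264), and Atm had TRCN0000360398 up by 1.25 in culture (adjusted p 0.00115). Cdc27, a subunit of the anaphase-promoting complex, had TRCN0000248359 up by 1.35 (adjusted p 0.00179) and TRCN0000248357 down by 1.10 (adjusted p 0.0360) in culture.

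Likeness of pattern was measured as Pearson r of log2(CPM + 1), as a description, since libraries of a group share cells and depth. The Cdkn1b control was most like the GFP hairpin among the other 7 controls (r = 0.796 over 142 libraries of all pools, so differences in level between pools enter it). For targeting hairpins r was taken within the pool. TRCN0000071064 was most like hairpins against Lama1 (0.947) and Adamts20 (0.906) of 51 others over 9 libraries, and TRCN0000222731 was most like Magea6 (0.951) and Aff2 (0.918). Over 12 libraries TRCN0000112150 was nearest to Negr1 (0.880) and Mrps7 (0.752), and TRCN0000112151 to Dusp5 (0.806) and Nalcn (0.732). TRCN0000436998 was nearest to Rbm8a (0.938) and Tmem45b (0.905), and TRCN0000437399 to Tmem45b (0.901) and Znrd1 (0.901), by a different Tmem45b hairpin. The pool 3 hairpin TRCN0000257162 was nearest to Csmd3 (0.970) and Smarca4 (0.969), over 5 libraries only. No pair of hairpins against the same gene was compared by this measure.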

How the data were processed

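Hairpin abundance was measured by sequencing hairpins amplified by a two-step PCR from genomic DNA, without molecular identifiers. The deposited values are a signal: reads multiplied by 1 factor per library, made by the authors in a way not given in the sources used here. BWA 0.5.9 is named in the submitters' processing notes. Division by each library's smallest deposited signal value gave whole numbers for 27241 of 27241 values (100%, tolerance 0.01 reads), taken as reads.

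Samples were grouped by the labels' pool and day. Reads of technical repeats were summed. TMM factors (edgeR 4.0.16) came from each pool's targeting hairpins; limma 3.58.1 (R 4.3.3, trend and robust) was fitted per pool to log2(CPM + 1) for hairpins with a mean of at least 10 reads, with Benjamini-Hochberg adjustment at 0.05. The 8 hairpins with libraries in more than 1 group passed that filter in every comparison made; the pool 13 hairpins were not tested. edgeR's quasi-likelihood test on recovered reads and DESeq2 1.42.0 size factors were alternatives. The design named counts or another unit; a signal was found, so limma was used. Fold changes on this scale understate changes of rare hairpins. Cdkn1b changes were tested over pools, or over sets without shared culture libraries, by two-sided sign-flip tests. Scripts were tested on simulated data. The genes, lists and tests were chosen with earlier results of these data known. Named are all hairpins of the 3 genes, controls they were compared with, the cell cycle genes with a called hairpin (examples of their hairpins), and the most alike hairpins (2 per targeting hairpin, 1 for the control). Most alike hairpins of the pool 13 members, over 3 libraries, are left out. Libraries were paired by letter only in pools where every same-letter r of deviations exceeded 0.1 (lungs against day 0: pools 4, 7 and 18; culture against day 0: 4, 7, 8 and 17; lungs against culture: 6). Depth sets counting error only; PCR reads are not independent molecules. Some control hairpins are not reported here by name.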

Additional observations from a re-analysis of the deposited data

Results flagged for a closer look

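Hairpins of these genes also had reads in libraries of pools that did not carry them, at more than 10 times the highest share in any day 0 library of another pool. TRCN0000112150 (Sfn, pool 10) made up 0.539% of reads in lung library 16D, 0.215% in the culture library of pools 16 and 17 labelled A, 0.107% in lung library 17A and 0.0271% in culture library 16E, against at most 0.00222% at day 0. TRCN0000112151 (Sfn, pool 10) made up 1.08%, 0.298%, 0.184% and 0.0385% of the same libraries, against at most 0.00224% at day 0. TRCN0000436998 (Sfn, pool 18) made up 0.0119% of lung library 16D and 0.00474% of lung library 17B, against at most 0.000284%. TRCN0000437399 (Sfn, pool 18) made up 0.0548% of lung library 16D and 0.0314% of lung library 17A, against at most 0.00246%. None of these reads entered the values of pools 10 and 18. Dixon's test at its 95% level singled out no library or set of pools in the 13 groups of 4 to 10 values, where chance alone would single out about 1 group in 20. These were groups of culture libraries and of sets of pools. Every day 0 and lung group held fewer than 4 libraries, so the test could not single out any of those libraries, 10C and 16D included.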

How the results depend on the processing

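The 3 comparisons of the Cdkn1b control relative to the other controls, and its changes from day 0 and from culture to lungs, kept their direction under every alternative run. With only the culture libraries named for 1 pool, the tests rest on 5 and 4 units and cannot pass 0.05: 0.68 (exact permutation p = 0.0625) in culture and 1.55 (0.125) from culture to lungs, and 1.73 and 1.33 relative to the other controls, with 3 and 0 pools called. Culture against day 0 gave -0.032 without TMM, with or without 10C and 16D (4 pools called), -0.038 with the targeting reads of all pools in a library (5 called) and 0.072 with library totals (4 called). Own-pool denominators left 2 pools called from culture to lungs, and moved the culture change to 1.23. For Cdkn2a and Sfn, library totals, no TMM and deposited values each left 1 hairpin called from day 0 to lungs and 1 from culture to lungs; leaving out a replicate letter gave 1 to 4 from day 0 to lungs.

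Library totals turned TRCN0000071064 to -0.53 in culture and -0.072 in lungs, TRCN0000112150 to -0.69 in culture and -3.86 in lungs, TRCN0000436998 to -0.25 in culture, and TRCN0000112151 to -3.31 from day 0 and -1.47 from culture to lungs; in mixed cultures the total holds both pools, and in 10C almost only controls. Deposited values gave -0.49 and -4.49 for TRCN0000112150, and -3.84 and -2.21 for TRCN0000112151. No TMM gave -0.25 from day 0 and -0.50 from culture to lungs for TRCN0000071064 and -0.094 from day 0 to lungs for TRCN0000222731, with or without 10C and 16D, and -0.75 and -0.050 for the pool 10 pair (0.33 and 1.03 without 10C and 16D). The near-zero culture change of TRCN0000112151 became 0.10 with cultures of the day 0 lane, 0.048 without 10C and 16D (and without 17A and the mixed culture), and -0.075 to 0.22 without a letter; TRCN0000437399 gave 0.23 without culture A. Other causes were not tested.

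Replicate letters did not pair libraries overall (median r 0.03, 0.11 and 0.06 over 49, 53 and 49 pairs; 18, 28 and 21 above 0.1). All letters were above 0.1 in 3 of 15, 4 of 17 and 1 of 15 pools with 3 or more letters; the block there changed only the call of TRCN0000437399 from day 0 to lungs. With the letter as a replicate block the Cdkn1b control changed by 1.94, 0.54 and 1.37, with 13, 12 and 10 pools called. From day 0 to lungs TRCN0000071064 (adjusted p 0.0980) and TRCN0000112151 (0.0986) were then not called and TRCN0000437399 (0.0460) was; from culture to lungs TRCN0000436998 (0.103) was not and TRCN0000437399 (0.0410) was.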
